A study of Mus musculus with 22 samples.

Results

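The subject is a set of 10 genes of potassium channels with a described role in the collecting duct or in related epithelia: the inward rectifiers Kcnj1, Kcnj10, Kcnj15 and Kcnj16, the calcium-activated channels Kcnma1 and Kcnn4, the tandem-pore channels Kcnk1 and Kcnk5, the voltage-gated channel Kcnq1 and the accessory subunit Kcne3. The members were taken by gene symbol from the deposited expression table, where all 10 were found among 54514 entries. The 22 libraries come from mpkCCD cells, an immortalised mouse line of the cortical collecting duct grown on permeable supports, and fall into 10 groups. Unsorted wild-type (WT) cells received vehicle (3 libraries) or dDAVP, an agonist of the vasopressin V2 receptor (3 libraries). The remaining 16 libraries are from 4 clones with a GFP reporter (C1, C11, C43, C50), which all received dDAVP. Each clone was represented by GFP-negative cells (2 libraries) and GFP-positive cells (2 libraries). The promoter that drives GFP is not given in the sources used here. Each clone is a single clonal line, so a difference between clones is a difference between 4 lines. All cells were kept in medium with dexamethasone, a glucocorticoid, before and during treatment. More than one dDAVP dose and duration is named in the labels, and neither is tied to a library.

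Potassium channels of the collecting duct serve both faces of the cell. On the apical side Kcnj1 (ROMK) and the large-conductance channel Kcnma1 (BK) carry potassium secretion into the urine, driven by sodium entry and by the sodium pump. On the basolateral side channels such as the Kcnj10 and Kcnj16 heteromer (Kir4.1 and Kir5.1) recycle potassium taken up by the pump and set the membrane voltage. Kcnq1 forms channels whose gating depends on a Kcne subunit, and with Kcne3 it makes a channel that is open at rest in several epithelia.

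Levels are given as TPM, an abundance corrected for transcript length that can be set side by side between genes. TPM keeps no depth, so sequencing depth is unknown, and precision can be judged from the spread of replicates alone. Nothing in the labels says that replicates came from separate cultures, so p-values measure the spread between libraries, which may be technical. Libraries had 12293 to 14341 genes at a TPM of 1 or more. The number of genes above 0 left a gap between 10 libraries at 17177 to 20250 and 12 at 23135 to 31292, and both sets held WT, GFP-negative and GFP-positive libraries. One library stood apart: in GFP-negative replicate 1 of clone C50 ribosomal-protein transcripts made up 8.32% of TPM, against 3.85% to 6.12% in all the others. Of 11 principal cell markers 9 averaged 1 TPM or more, and of 10 intercalated cell markers 4 did. Markers of the thick ascending limb, distal convoluted tubule, podocyte, endothelium and fibroblast summed to at most 1.48 TPM in any library. Proximal tubule markers summed to 0.94 to 16.2 TPM, with Lrp2 averaging 1 TPM or more, and leukocyte markers to 3.22 to 12.95 TPM, with Cd68 averaging 1 TPM or more. The GFP transcript and Aqp2, the vasopressin-regulated water channel, were higher in GFP-positive than in GFP-negative libraries of every clone.

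RefSeq promoter windows (GRCm38.p6) were matched for 9 of the 10 genes, in 13 windows, with none for Kcnq1. The 250 bases before the start are printed for 4 members: the most abundant channel, the other abundant tandem-pore channel, and the pair of inward rectifiers whose levels differed most between clones (for Kcnj16 the first of its 4 listed starts). Capitals mark CpG dinucleotides.
Kcnk1, chr8:125994852-125995101, plus strand: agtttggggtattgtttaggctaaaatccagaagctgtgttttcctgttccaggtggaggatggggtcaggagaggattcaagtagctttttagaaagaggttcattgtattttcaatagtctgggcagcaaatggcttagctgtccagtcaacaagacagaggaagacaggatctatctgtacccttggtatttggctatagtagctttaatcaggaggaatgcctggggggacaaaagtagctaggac
Kcnk5, chr14:20181783-20182032, minus strand: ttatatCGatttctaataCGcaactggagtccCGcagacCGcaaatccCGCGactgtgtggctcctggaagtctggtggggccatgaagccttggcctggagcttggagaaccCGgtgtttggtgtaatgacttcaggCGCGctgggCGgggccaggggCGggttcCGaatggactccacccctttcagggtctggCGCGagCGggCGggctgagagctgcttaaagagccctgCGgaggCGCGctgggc
Kcnj15, chr16:95257308-95257557, plus strand: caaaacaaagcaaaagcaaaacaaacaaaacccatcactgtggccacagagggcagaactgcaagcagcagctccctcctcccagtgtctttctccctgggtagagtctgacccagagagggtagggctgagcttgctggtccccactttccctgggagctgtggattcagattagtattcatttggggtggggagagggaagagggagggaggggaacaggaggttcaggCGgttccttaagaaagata
Kcnj16, chr11:110967783-110968032, plus strand: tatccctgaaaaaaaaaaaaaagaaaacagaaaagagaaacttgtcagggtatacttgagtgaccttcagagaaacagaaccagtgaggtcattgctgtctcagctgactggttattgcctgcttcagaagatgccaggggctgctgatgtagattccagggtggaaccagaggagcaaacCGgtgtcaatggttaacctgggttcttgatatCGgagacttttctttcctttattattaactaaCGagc

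The windows differed in CpG content, and a relation of this to the level of the transcript was not tested. Kcnk1, the most abundant member, had 0 CpG dinucleotides before its listed start and 44.4% GC. Kcnk5 had 19, Kcnj15 had 1 and the first Kcnj16 window had 3, while the other 3 Kcnj16 windows had 7, 4 and 1. Kcnma1, which was close to absent, had 31, more than 94.8% of the 32851 windows of the table, whose median was 6. The full cAMP response element TGACGTCA was in none of the 13 windows and in 1.55% of all windows of this length. Its shorter form TGACG, searched on both strands and contained in the full element, was found once, in the window of Kcnj1, and in 17.8% of all windows. These matches describe the letters of the windows only.

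The 10 genes covered a wide range of levels in these cells. Kcnk1, which encodes the tandem-pore channel TWIK-1, ran from 311 to 484 TPM with a median of 389 over 22 libraries, above 99.2% of all entries by its mean. Kcnq1 ran from 16.6 to 78.5 TPM (median 41.2), and Kcnk5, the alkali-activated tandem-pore channel TASK-2, from 5.39 to 32.6 TPM (median 17.8). These 3 were above 1 TPM in 22 of 22 libraries. Kcnj16 ran from 0.05 to 7.81 TPM and reached 1 TPM in 14 libraries.

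The other 6 members were low. Kcnj15 reached 1 TPM in 6 libraries (highest 3.27) and Kcnj10 in 2 (highest 1.48). Kcnma1, Kcnn4 and Kcnj1 reached 1 TPM in none, with highest values of 0.72, 0.61 and 0.37, and were listed at 0 in 10, 10 and 12 libraries. Kcne3 was listed at 0 in 21 libraries and at 0.07 in the remaining one. The classical apical secretory channels ROMK and BK, and the Kcne3 partner of Kcnq1, were therefore at or near 0 in the RNA of this line with and without dDAVP, and their order over the groups was within the spread of the libraries at nearly every step.

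Kcnk1 alone made up 76.7% to 93.3% of the summed TPM of the 10 genes. The 10 genes in turn made up 94.7% to 99.5% of the TPM of these genes and all 68 other pore-forming potassium channel genes in the table, of which 2 averaged 1 TPM or more (Kcnn1 and Kcnk10, named after their values were seen).

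**Figure D1:**
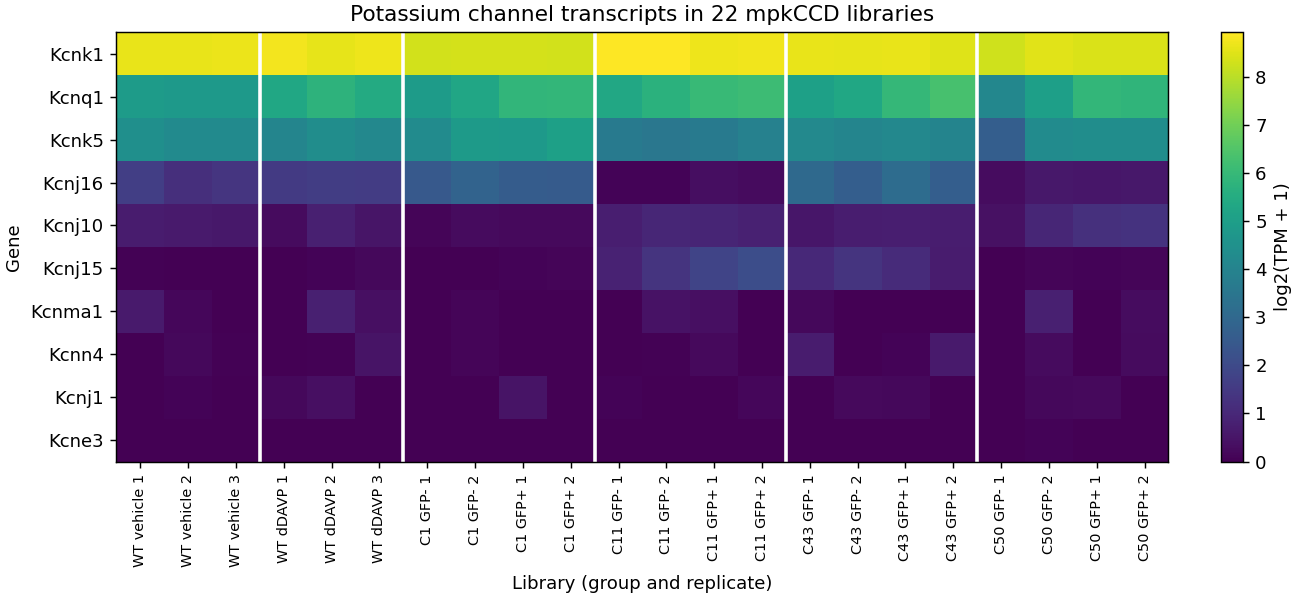
Heat map of log2(TPM + 1) for the 10 potassium channel genes (rows, by mean level) in the 22 libraries (columns, by group and replicate, white lines between WT treatments and clones). Kcnk1 is high in every library (311 to 484 TPM), Kcnq1 and Kcnk5 are present in all, Kcnj16 and Kcnj15 are present in some clones, and the lower rows are near 0.

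Of the 4 members tested with dDAVP, Kcnq1 was the one called different from vehicle. In WT cells it was 28.6, 26.6 and 27.0 TPM with vehicle and 39.0, 53.4 and 42.6 TPM with dDAVP. Every dDAVP library was above every vehicle library, as was the case for 7.12% of tested genes. The means were 27.4 ± 1.01 TPM and 45.0 ± 7.47 TPM (SD, n = 3 each), a ratio of 1.64. The change in log2(TPM + 1) was 0.68 (standard error 0.12, limma, Benjamini-Hochberg adjusted p 0.0208 over 13494 genes). The two-sided exact permutation test had a p of 0.1, and no lower value is possible with 3 libraries per group.

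The 4 members tested were those that averaged 1 TPM or more in WT cells, and the other 6 were not tested. Of the 4, 1 was called, at an adjusted p under 0.05, and it was higher. Over all genes tested 8.88% were called, 2.37% higher and 6.51% lower, and the median change was -0.16. That balance depends on scaling: 26.7% of calls were higher as deposited and 59.6% after median-ratio scaling, which moved the median to -0.00039 and the Kcnq1 change to 0.85 (adjusted p 0.0042). Other measures differed without overlap between the same libraries: proximal tubule markers summed to 10.3 to 15.9 TPM with vehicle and 5.17 to 8.58 TPM with dDAVP, and mitochondrial transcripts made up 1.17% to 1.28% and 1.29% to 1.51% of TPM. Their part in the Kcnq1 result was not tested. The Kcnq1 call was lost without some single libraries and held without dDAVP replicate 1 or 2. Without vehicle replicate 1, 2 or 3 or dDAVP replicate 3 its change was 0.71, 0.66, 0.67 or 0.72 with an adjusted p of 0.0581, 0.0723, 0.0741 or 0.0701. In the 4 WT libraries (2 per group) in which more genes were detected, it was 0.77 (adjusted p 0.114). The call was also lost with the replicate number as a block.

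No difference with dDAVP was called for the other 3 members tested. Kcnk1 was 389.9, 395.0 and 402.1 TPM with vehicle and 434.6, 388.45 and 412.0 TPM with dDAVP, and the ranges overlap. Its change was 0.056, with a 95% confidence interval of -0.098 to 0.21 (limma adjusted p 0.582). Kcnk5 was 20.6, 18.45 and 18.2 TPM with vehicle and 15.7, 19.9 and 16.8 TPM with dDAVP. These ranges overlap too, and the change was -0.12 (95% confidence interval -0.39 to 0.14, limma adjusted p 0.477), with the opposite sign after median-ratio scaling (0.039) and quantile normalization (0.11). Kcnj16 was 2.12, 1.28 and 1.57 TPM with vehicle and 1.88, 2.04 and 2.02 TPM with dDAVP, a change of 0.18 (95% confidence interval -0.35 to 0.70, limma adjusted p 0.612).

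Between GFP fractions over the 4 clones Kcnq1 was again the one member called of 4 tested. In C1 it was 29.1 and 37.8 TPM in GFP-negative and 58.2 and 59.6 TPM in GFP-positive libraries. In C11 the values were 39.9 and 50.6 against 63.9 and 68.7 TPM. In C43 they were 32.4 and 39.2 against 61.05 and 78.5 TPM, and in C50 16.6 and 32.2 against 58.3 and 56.6 TPM. The highest GFP-negative library of any clone (50.6 TPM) was below the lowest GFP-positive library of any clone (56.6 TPM), as for 1.26% of genes tested. The GFP-positive library was higher in 8 of 8 same-numbered pairs, as for 8.88% of genes.

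Over the 4 clones Kcnq1 was 34.7 ± 9.86 TPM in GFP-negative and 63.1 ± 7.32 TPM in GFP-positive libraries (SD, n = 8 each), a ratio of 1.82. With the clone as a covariate the change was 0.89 (standard error 0.13, limma adjusted p 0.000131 over 13113 genes). Exchanging libraries within clones, a two-sided exact permutation test had a p of 0.001543, which is the minimum for 1296 arrangements, or 0.0123 adjusted over the 8 permutation tests made (4 genes in 2 comparisons). In bulk RNA of a fraction, more cells that express a gene and more transcript per cell cannot be told apart.

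Of the 4 members tested between fractions 1 was called, and it was higher in GFP-positive cells, against 35.3% of all genes called, 12.1% higher and 23.2% lower. Of all calls 34.2% were higher as deposited, 50.9% with median-ratio scaling and 50.1% with quantile normalization. The Kcnq1 change was 0.71 (adjusted p 0.00954) in the 8 clone libraries with more genes detected. It was 1.14 (adjusted p 0.0695) in the 8 with fewer, where the call was lost. The 8 with more held C1 only as GFP-positive replicate 2, and the 8 with fewer held C11 only as GFP-positive replicate 2. These clones gave no difference between fractions there, so both changes come from different sets of clones. In the 8 with fewer, GFP-negative C50 was the library that stood apart. Without that library alone, the Kcnq1 change over the 4 clones was 0.78 (adjusted p 8.49e-06). Without Aqp2, the 10 remaining principal cell markers summed to 547 to 1351 TPM in GFP-negative and 1153 to 3542 TPM in GFP-positive libraries, and to 883 to 974 TPM with vehicle and 1137 to 1317 TPM with dDAVP in WT cells. These are sums, and single markers can differ from them: Hsd11b2, on this list, changed by -0.15 with dDAVP (limma adjusted p 0.500). The summed intercalated cell markers were 26.0 to 78.7 TPM in GFP-negative and 56.4 to 121 TPM in GFP-positive libraries. The part of either marker list in the Kcnq1 result was not tested.

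Within single clones the ratio of Kcnq1 means was 1.76, 1.47, 1.95 and 2.36 in the order C1, C11, C43, C50. The value of C50 includes the library that stood apart, and without that library the log2 change there was 0.82 in place of 1.27. The fractions did not overlap in any clone, with GFP-positive above GFP-negative, as for 6.72% of genes tested. The log2 changes in C1, C11, C43 and C50 were 0.81, 0.55, 0.94 and 1.27, each with a standard error of 0.26. The limma adjusted p was 0.0296 in C43 and 0.00436 in C50, which passed, and 0.0908 in C1 and 0.257 in C11, which did not. Over all genes 16.3% were called in C43, 26.6% in C50, 7.22% in C1 and 7.94% in C11. The difference between clones in this change was itself tested and not called: limma's interaction test gave Kcnq1 an adjusted p of 0.599. None of the 4 members tested had an interaction by limma at an adjusted p under 0.05, against 0.869% of all genes, and 0 did at an unadjusted p under 0.05, against 1691 of 13113 genes. Without GFP-negative replicate 2 of C50, which leaves the library that stood apart as that group, the interaction of Kcnq1 and of Kcnk5 was called (adjusted p 0.0222 and 0.00482), where 38.6% of all genes were called.

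Single libraries also decided calls within clones. Without either GFP-negative library of C50, replicate 1 or 2, Kcnq1 passed in C1 (adjusted p 0.00775 and 0.00717) and in C11 (0.0423 and 0.0408) with its change there as before. The share of all genes called also rose without them, to 15.9% and 16% in C1 and to 17.7% and 17.8% in C11. It did not pass in C43 without GFP-negative replicate 1 or 2 or GFP-positive replicate 2 (adjusted p 0.189, 0.0732 and 0.192). In C50 its change was 0.82 without GFP-negative replicate 1 and 1.73 without replicate 2 (adjusted p 0.0146 and 6.47e-05).

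**Figure D2:**
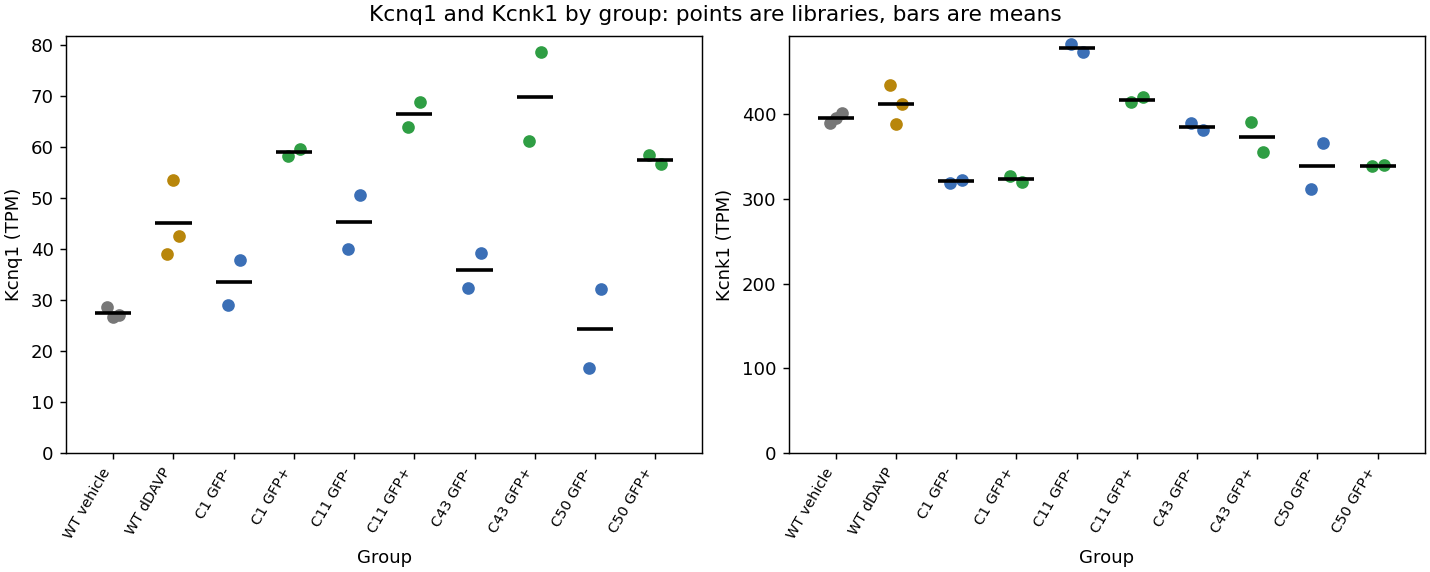
Kcnq1 (left) and Kcnk1 (right) in TPM (y axes from 0, different scales) by group, with 1 point per library and a bar at the group mean. For Kcnq1 all 8 GFP-positive libraries (56.6 TPM or more) lie above all 8 GFP-negative libraries (50.6 TPM or less). Kcnk1 lies between 311 and 484 TPM throughout.

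Reads from Kcnq1 and from the antisense transcript Kcnq1ot1, which lies within the same locus, can only be told apart where the counting uses strand, which is not given in the sources used here. Kcnq1ot1 was listed at 0.43 to 1.51 TPM over the 22 libraries. The part of such reads in the Kcnq1 values was not tested.

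Kcnk1 had the same level in both fractions of 3 clones within the spread of the libraries. It was 318.9 and 322.5 TPM in GFP-negative against 326.7 and 320.3 TPM in GFP-positive libraries of C1, 389.6 and 380.9 against 390.9 and 355.25 TPM in C43, and 311.45 and 366.4 against 338.4 and 339.6 TPM in C50. In C11 the values were 483.5 and 473.5 against 414.5 and 420.0 TPM, lower in both GFP-positive libraries. With 2 libraries per fraction this is a description, and the share of all genes that separate in this way in C11 was not computed. The change in C11 was -0.20 (standard error 0.088, limma adjusted p 0.23), and it passed when either GFP-negative library of C50 was left out (adjusted p 0.0387 and 0.041). With median-ratio scaling it was -0.044 (adjusted p 0.892). Over 4 clones the change was -0.057 (95% confidence interval -0.16 to 0.048, limma adjusted p 0.413). The ratio of Kcnk1 to Kcnq1 TPM had a median of 14.8 in vehicle, 9.68 in dDAVP, 11.2 in GFP-negative and 5.90 in GFP-positive libraries.

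Kcnk5 was higher in GFP-positive libraries in 6 of 8 pairs, short of the threshold. In C1 it was 18.6 and 27.9 TPM in GFP-negative and 26.8 and 32.6 TPM in GFP-positive libraries, in C11 11.5 and 10.65 against 11.8 and 14.15 TPM, and in C43 17.4 and 15.6 against 17.1 and 15.3 TPM. In C50 GFP-negative replicate 1, the library that stood apart, had 5.39 TPM and replicate 2 had 18.5 TPM, against 19.75 and 19.7 TPM in the GFP-positive libraries. Its change over 4 clones was 0.36 (95% confidence interval -0.057 to 0.77, limma adjusted p 0.174), and 0.16 without the library that stood apart (adjusted p 0.172). It passed after median-ratio scaling (0.44, adjusted p 0.0353) and quantile normalization (0.44, adjusted p 0.014). Within C50 the change was 0.89 (adjusted p 0.112), 0.084 without GFP-negative replicate 1 and 1.70 without replicate 2 (adjusted p 0.838 and 0.000129), where 23.7% and 52.2% of all genes were called. Kcnj16 changed by 0.077 over 4 clones (95% confidence interval -0.18 to 0.33, limma adjusted p 0.665).

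**Figure D3:**
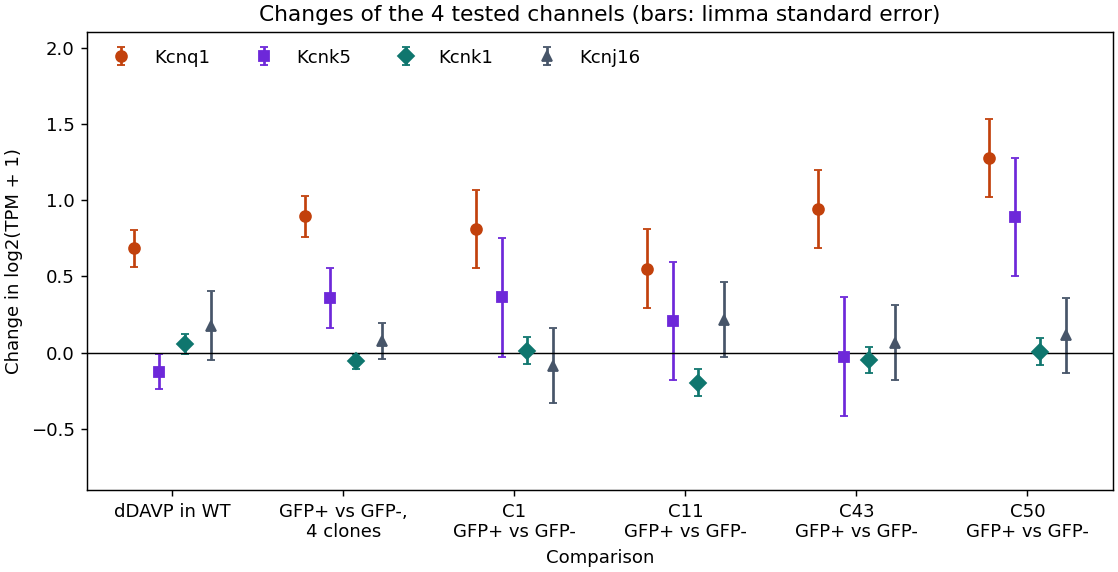
Change in log2(TPM + 1) of the 4 members tested (points, with limma standard errors as bars) for dDAVP against vehicle in WT cells, for GFP-positive against GFP-negative over 4 clones, and within each clone. Kcnq1 is above 0 in all 6 comparisons (0.55 to 1.27), and Kcnk1 is within 0.20 of 0 in all of them.

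Levels also differed between clones, tested over the means of both fractions. Of the 4 members tested 3 were called by limma's F-test over the clone means, Kcnj16 (adjusted p 9.35e-07), Kcnk1 (adjusted p 0.000678) and Kcnk5 (adjusted p 0.0482), against 31.6% of all genes, and Kcnq1 was not (adjusted p 0.115). Kcnj16 passed the filter only through the clones where it was high, so its test adds little to the values. The call of Kcnk5 was lost without any one library other than the GFP-negative libraries of C50 (adjusted p 0.0682 to 0.179).

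Kcnj16, the Kir5.1 subunit, was present in C1 and C43 and nearly absent in C11 and C50. In C1 it was 4.64 and 6.12 TPM in GFP-negative and 4.98 and 4.97 TPM in GFP-positive libraries, and in C43 7.22 and 5.30 against 7.81 and 5.42 TPM. In C11 it was 0.05 and 0.07 against 0.26 and 0.20 TPM. In C50 it was 0.23 and 0.49 against 0.45 and 0.48 TPM. The lowest of the 8 libraries of C1 and C43 (4.64 TPM) was above the highest of the 8 libraries of C11 and C50 (0.49 TPM), and the ratio of their means was 20.8. Some pair of clones lay above the other pair in this way, without overlap of any library, for 1.88% of genes tested. The WT libraries, at 1.28 to 2.12 TPM, lay between both sets of clones. The clones were paired in this way after their values were seen.

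Kcnj15, the Kir4.2 subunit, had another distribution. It was 0.81 and 1.51 TPM in GFP-negative and 2.59 and 3.27 TPM in GFP-positive libraries of C11, and 1.03 and 1.52 against 1.13 and 0.62 TPM in C43. In C1, C50 and WT cells it was between 0 and 0.14 TPM. In C43 Kcnj16 and Kcnj15 were both at 0.62 TPM or more, in C1 only Kcnj16 and in C11 only Kcnj15. C50 had neither above 0.49 TPM. The clones were grouped in this way after their values were seen, at levels for which no limit of detection can be given. The share of all entries that split between clones as Kcnj15 did was not computed. Kcnj15 averaged under 1 TPM over the clone libraries and did not pass the filter. With any TPM above 0 admitted, the difference between clones had a limma adjusted p of 0.00146, where 7.46% of 40321 entries were called.

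Kcnj10, which pairs with Kcnj16 as Kir4.1, did not follow it. It was 0.09, 0.21, 0.18 and 0.18 TPM in the 4 libraries of C1, where Kcnj16 was high. In C11 it was 0.69 to 0.95 TPM and in C43 0.46 to 0.68 TPM, and in WT cells 0.21 to 0.72 TPM. In C50 it was 0.31 and 0.95 TPM in GFP-negative and 1.33 and 1.48 TPM in GFP-positive libraries, the highest of the series. With any TPM above 0 admitted, the difference between clones had a limma adjusted p of 0.127.

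**Figure D4:**
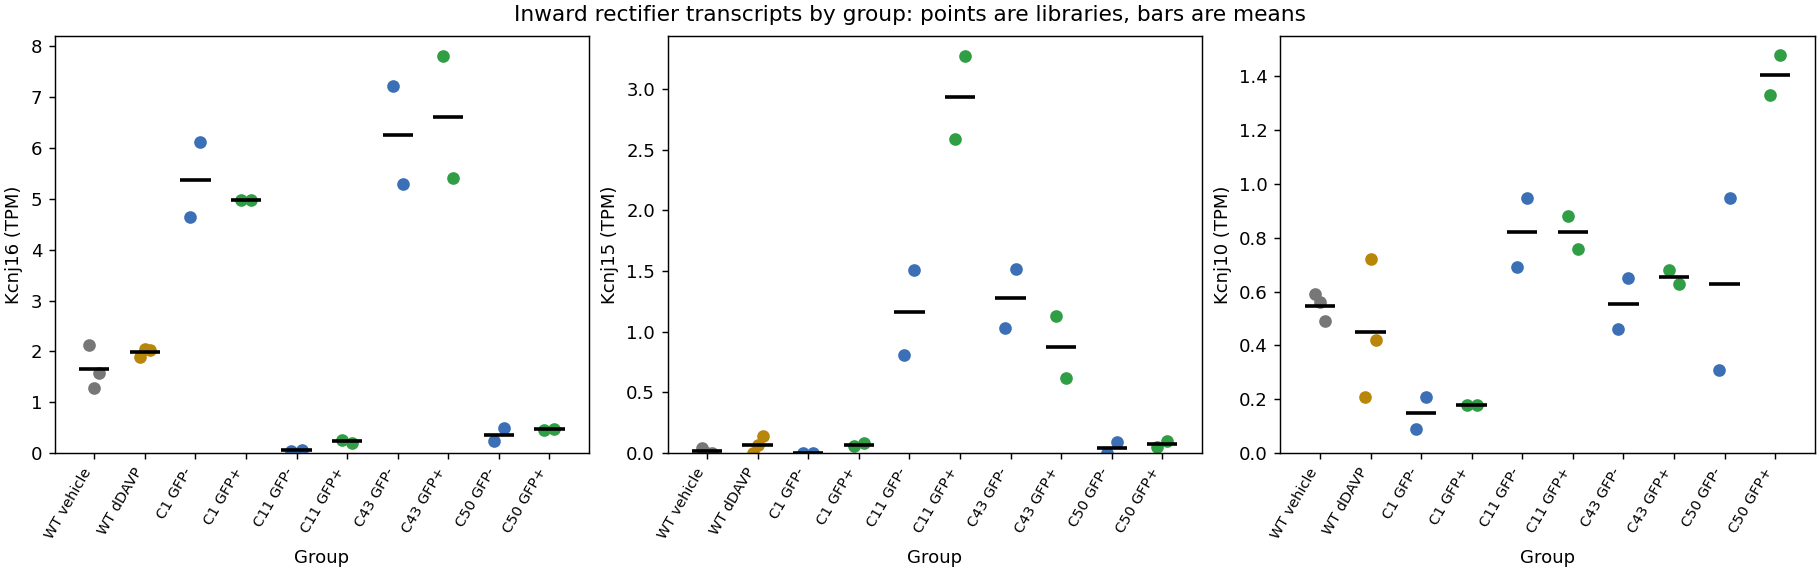
Kcnj16, Kcnj15 and Kcnj10 in TPM (y axes from 0, different scales) by group, with 1 point per library and a bar at the group mean. Kcnj16 is at 4.64 TPM or more in every library of C1 and C43 and at 0.49 TPM or less in C11 and C50, and Kcnj15 is at 0.62 TPM or more in C11 and C43 and at 0.14 TPM or less elsewhere.

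Kcnk1 was highest in C11, at 448 ± 35.7 TPM, followed by C43 at 379 ± 16.6, C50 at 339 ± 22.4 and C1 at 322 ± 3.42 TPM (SD, n = 4 libraries each, both fractions). The ranges of C11 and C43 did not overlap, while those of C43 and C50 and those of C50 and C1 did. Kcnk5 was highest in C1 and lowest in C11. It was 26.5 ± 5.84 TPM in C1, 16.4 ± 1.04 in C43, 15.8 ± 6.99 in C50 and 12.0 ± 1.50 TPM in C11 (SD, n = 4 each). The order of C43 and C50 rests on the library that stood apart, at 5.39 TPM. The other C50 libraries (18.5 to 19.75 TPM) were above every C43 library (15.3 to 17.4 TPM). With that library included, the range of C50 overlapped those of the other clones. Kcnk1 and Kcnk5 had a Pearson r of -0.57 across the 10 group means of log2(TPM + 1), that library included. This describes groups that share clones and treatment. Between the highest and the lowest group mean Kcnk1 spanned 1.49-fold, Kcnk5 2.68-fold and Kcnq1 2.86-fold. The lowest Kcnq1 group, GFP-negative C50, includes the library that stood apart (16.6 TPM, against 32.2 TPM in replicate 2), so its span rests in part on that library.

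In the order of the 10 group means of Kcnq1, the 4 GFP-positive groups came first (57.5 to 69.8 TPM). GFP-negative C11 and WT dDAVP followed (45.2 and 45.0 TPM), then GFP-negative C43 and C1 (35.8 and 33.4 TPM). Each of these pairs overlapped, and WT dDAVP also overlapped with GFP-negative C43. WT vehicle (27.4 TPM) and GFP-negative C50 (24.4 TPM) came last and overlapped. In GFP-negative C50 the library that stood apart had 16.6 TPM, and replicate 2 (32.2 TPM) was above every WT vehicle library. For Kcnk1 GFP-negative C11 was highest (478.5 TPM), followed by GFP-positive C11 (417 TPM).

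The genes whose 10 group means of log2(TPM + 1) were most like those of Kcnq1, among 9632 genes that averaged 5 TPM or more, were Tcta, Hsd17b4 and Eif1a (Pearson r 0.976, 0.976 and 0.972), and Aqp2 had an r of 0.65. For Kcnk1 they were Dlx4, Dgka and Prep (r 0.959, 0.925 and 0.896), and for Kcnk5 Zbtb16, Ccng1 and Sh3gl2 (r 0.969, 0.947 and 0.935).

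Accessory subunits of potassium channels were mostly low: of 19 listed genes, 4 averaged 1 TPM or more and 1 averaged 5 TPM or more. That one was Lrrc26, a gamma subunit that lets BK channels open at more negative voltages. Lrrc26 ran from 25.4 to 79.97 TPM, while its pore gene Kcnma1 was between 0 and 0.72 TPM in the same libraries. It was 40.7 ± 12.4 TPM in GFP-negative and 59.1 ± 16.6 TPM in GFP-positive libraries (SD, n = 8 each) and higher in 8 of 8 pairs, a change of 0.54 (standard error 0.070, limma adjusted p 3.64e-05). Of the 4 accessory subunits tested 2 were called between fractions, Lrrc26 and Kcnip2, beside 35.3% of all genes called. Kcnip2, named after its values were seen, had group means of 0.26 to 1.80 TPM in GFP-negative and 0.71 to 3.72 TPM in GFP-positive fractions and passed the filter through the groups where it is high, so its call is no support. With dDAVP 4 were tested, Lrrc26 among them and Kcnip2 not, and 0 were called by limma, beside 8.88% of all genes. Of the Kcne family Kcne2 was the highest, at 0 to 1.68 TPM (named after its values were seen).

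**Figure D5:**
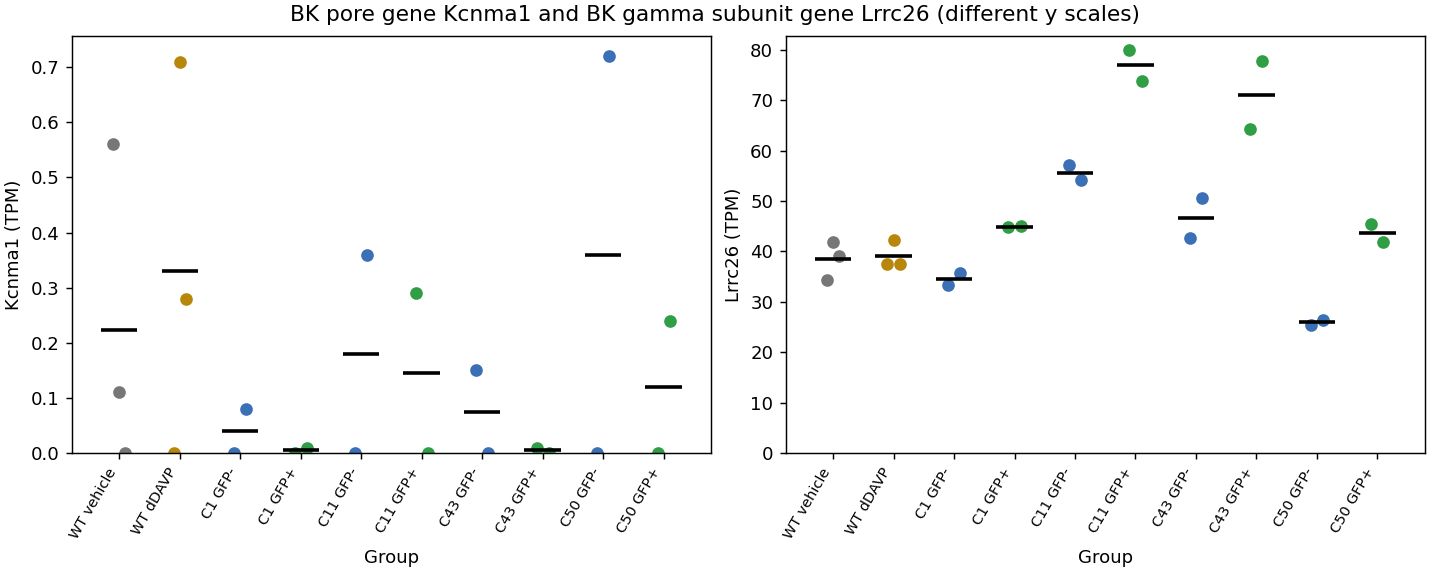
Kcnma1 (left) and Lrrc26 (right) in TPM (y axes from 0, different scales) by group, with 1 point per library and a bar at the group mean. The pore gene Kcnma1 stays at or under 0.72 TPM in every library and Lrrc26 is at 25.4 TPM or more in every library.

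Genes that control trafficking and activity of these channels were well represented, with 15 of 19 tested. With dDAVP 1 rose and 1 fell, beside 2.37% of all genes higher and 6.51% lower. Slc9a3r1, a scaffold of apical membrane proteins (NHERF1), rose from 207 ± 2.29 to 264 ± 15.3 TPM, and its relative Slc9a3r2 (NHERF2) fell from 36.4 ± 1.34 to 26.2 ± 0.628 TPM (SD, n = 3 each, limma adjusted p 0.026 and 0.0171). Both calls depend on scaling: the log2 change of Slc9a3r2 was -0.46 as deposited, -0.29 with median-ratio scaling (adjusted p 0.144) and -0.26 with quantile normalization (adjusted p 0.16), and that of Slc9a3r1 was 0.35, 0.52 (adjusted p 0.0145) and 0.31 (adjusted p 0.0525). The median change of the 15 was -0.24, beside -0.16 over all genes tested.

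Between GFP fractions 6 of the 15 regulators rose and 1 fell, beside 12.1% of all genes higher and 23.2% lower. Sgk1, the aldosterone- and glucocorticoid-induced kinase, was 361 ± 140 TPM in GFP-negative and 762 ± 288 TPM in GFP-positive libraries (SD, n = 8 each), a change of 1.08 (limma adjusted p 2.03e-06). Nedd4l, a ubiquitin ligase that Sgk1 inhibits, changed by 0.67 and Hsd11b2, the enzyme that inactivates glucocorticoids in principal cells, by 0.71 (adjusted p 0.00106 and 0.000534). Slc9a3r2 fell from 40.3 ± 6.91 to 13.5 ± 3.87 TPM, a log2 change of -1.54 (adjusted p 6.76e-07). The median change of the 15 was 0.17, beside -0.063 over all genes tested. The spreads over 8 libraries include the differences between clones.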

How the data were processed

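RNA was measured in 22 libraries of mpkCCD cells, grouped by the sample labels. Per the labels' protocols, the SMART-Seq HT kit was used for cDNA and Nextera XT for paired-end libraries. STAR and RSEM are named in the submitters' processing notes; versions, genome build and annotation are not given in the sources used here. The authors deposited TPM per gene and library, together with group means and a ratio of means per comparison, which were not used. Lines with the same symbol (980 lines, 79 symbols) were summed, leaving 54514 entries. No pair of libraries was identical.

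limma 3.58.1 in R 4.3.3 was fitted to log2(TPM + 1), a pseudocount of 1, for genes averaging 1 TPM or more in the fitted libraries, with a mean-variance trend. This scale understates changes of low genes. Tests were two-sided, with Benjamini-Hochberg adjustment over all genes tested and a threshold of 0.05. WT libraries (6) were fitted alone. Clone libraries (16) were fitted with clone as a covariate or with a mean per clone and fraction. Exact permutation tests used Python 3.11.15. The limma fit of 3 against 3 WT libraries was run on simulated data with known changes. The clone fits and the permutation tests were not. No sequencing depth can be derived from TPM.

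The members and gene lists were chosen with earlier results of these data known. Named beside the members were Aqp2, GFP and Kcnq1ot1, up to 4 called genes per list and comparison averaging 5 TPM or more, by size of change, and the 3 genes most like each of the 3 most abundant members. Alternatives were another pseudocount (0.1), a stricter filter (a mean of 5) or none beyond a TPM above 0, scaling by median ratio or quantiles, moderation without trend or robust, a covariate of genes detected, the replicate number as a block, clone means, other sets of libraries, and leaving out each library or clone. The subsets by genes detected were chosen after seeing the data.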

Additional observations from a re-analysis of the deposited data

How the results depend on the processing

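TPM keep no depth, so no limit of detection can be given for members near 0. The number of members called with dDAVP fell from 1 to 0 with the replicate block and in the WT libraries with more genes detected, and was 0 to 1 when single libraries were left out. The share of all genes called fell as well, from 8.88% to 0.904% with the block, 0.728% in that subset and 2.31% to 3.12% without the libraries whose omission lost the call. Under the replicate block the Kcnq1 change with dDAVP was 0.68 (adjusted p 0.102). Same-numbered libraries share only a number, with correlations of their deviations of -0.208, -0.0254 and -0.109 in WT cells and 0.0544, 0.0151, 0.203 and 0.0825 in C1, C11, C43 and C50, and the block changed no other call of a member with dDAVP, between fractions, within a clone or for the interaction. No block was fitted for the differences between clones. Between fractions the count went from 1 to 2 with median-ratio scaling and with quantile normalization (Kcnk5 added) and to 0 in the clone libraries with fewer genes detected, where 1.96% of all genes were called against 35.3%, and was 1 whichever library was left out. In C1 it went from 0 to 1 with median-ratio scaling, quantile normalization or all 22 libraries in the fit (Kcnq1, adjusted p 0.016, 0.00505 and 0.0375), in C11 from 0 to 1 with quantile normalization (Kcnq1, 0.0221), and in C43 from 1 to 0 with any TPM above 0 (Kcnq1, 0.0862). Left-out libraries gave 0 to 1 calls in C1, 0 to 2 in C11, 0 to 1 in C43, 1 to 2 in C50, 0 to 2 for the interaction and 2 to 4 for differences between clones. The Kcnk5 difference between clones did not pass with a pseudocount of 0.1 (adjusted p 0.0531), any TPM above 0 (0.142) or no trend (0.0618). The cause of these changes was not tested.

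Kcnq1 kept its direction in every alternative run for the dDAVP, the fraction and the single-clone comparisons (log2 changes of 0.38 to 1.73). Uncalled changes changed sign as follows. With quantile normalization Kcnk1 became -0.045 and Kcnk5 0.11 with dDAVP, Kcnj16 0.025 in C1 and Kcnk5 0.20 in C43. With median-ratio scaling Kcnk5 became 0.039 with dDAVP, and Kcnk1 became 0.023 over 4 clones, 0.14 in C43 and -0.093 in C50, and Kcnk5 0.15 in C43. Kcnk1 was 0.016 over the clone libraries with fewer genes detected and -0.0078 in C1 with genes detected as a covariate. With single libraries left out, Kcnj16 ranged from -0.25 to 0.083 in C1, -0.16 to 0.29 in C43 and -0.024 to 0.25 in C50. Kcnk1 ranged from -0.0019 to 0.027 in C1, -0.12 to 0.021 in C43 and -0.11 to 0.12 in C50, and Kcnk5 from -0.10 to 0.048 in C43.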

Other observations

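Transporters that move potassium by other routes were also measured, with 5 of 8 tested. With dDAVP 1 was called higher and 1 lower, beside 2.37% of all genes higher and 6.51% lower, and between fractions 1 fell and 0 rose, beside 23.2% lower and 12.1% higher. With median-ratio scaling and with quantile normalization 2 others passed as higher between fractions, Slc12a2 (0.39 in both, limma adjusted p 0.0311 and 0.0129) and Slc12a7 (0.61 and 0.60, adjusted p 0.0187 and 0.00906), both named after their values were seen. Slc12a4, the potassium-chloride cotransporter KCC1, fell with dDAVP from 30.1 ± 3.32 to 17.9 ± 2.41 TPM (SD, n = 3 each), a log2 change of -0.72 (limma adjusted p 0.0198). Between fractions it fell from 22.5 ± 9.19 to 5.86 ± 3.38 TPM (SD, n = 8 each), a log2 change of -1.81 (adjusted p 1.59e-05). Atp4a, the gastric hydrogen-potassium pump catalytic subunit, was at most 5.99 TPM and had a log2 change of 1.12 with dDAVP (adjusted p 0.049). It was named after its values were seen and passed the filter through the dDAVP libraries, so its call is no support. The call did not hold with median-ratio scaling (1.21, adjusted p 0.051) or quantile normalization (1.15, adjusted p 0.0812). Its partner Atp4b and the other pump gene Atp12a were at most 0.12 and 0.66 TPM.

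Of the 68 pore-forming channel genes outside the 10, 2 passed the filter between fractions and 1 was called, lower, beside 35.3% of all genes called and 23.2% lower. Kcnk10, the tandem-pore channel TREK-2, was named after its values were seen and passed the filter only through the GFP-negative fraction, so its levels are a description. Its group means were 1.68, 1.92, 1.58 and 2.88 TPM in the GFP-negative and 0.34, 0.22, 0.36 and 0.26 TPM in the GFP-positive fractions of C1, C11, C43 and C50.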
